A study of Homo sapiens with 9 samples.

Results

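Mitosis genes are described here as a set of 41 genes, picked by symbol from the deposited tables because they code for cyclins and kinases of mitotic entry or for parts of the checkpoint, kinetochore, spindle and cleavage machinery. All 41 were found among the 31558 genes of the tables, and the rule that picks them uses no measured value. The cells were HCT116, a human colorectal cancer (CRC) line. CRLM1-OE cells overexpressed the long noncoding RNA CRLM1 (LINC01767), Ctrl cells carried the plasmid without an insert, and Anti cells carried the antisense sequence of CRLM1. Polyadenylated RNA was sequenced from 3 biological replicates of each group, 9 samples in all. The study's methods give a lentiviral vector with GFP and puromycin selection for expressing CRLM1, while the sequenced cells of all 3 groups are described as transfected with plasmids. Whether Ctrl and Anti were also made with the virus and selected, and whether any group was a pool or a single clone, is not given in the sources used here.

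Each library held 33302292 to 44514692 counted reads. In counts scaled to library size (CPM), 3 reads were worth 0.0674 to 0.0901, a limit that covers counting error only. The overexpressed gene itself, CRLM1, reached 38704, 32751 and 35726 reads in CRLM1-OE and 1951, 1777 and 1540 in Anti, against 0 in every Ctrl sample. Strand use in the counting is not given in the sources used here, so sense and antisense reads cannot be told apart. The line expressed epithelial markers, with group means of 74.4 to 93.1 FPKM (fragments scaled to exon length and library size) for EPCAM and at least 426 for KRT18, but the intestinal marker VIL1 was near 0 (0.0133 to 0.0200 FPKM). Of the other cell types' markers, COL1A1 (1.2 to 2.2 FPKM) and CD68 (1.4 to 1.89 FPKM) were measurable, while PDGFRB, PECAM1, CDH5 and PTPRC were at most 0.0333 FPKM. By the test described below, 4 of the 7 epithelial markers examined were lower in CRLM1-OE than in Ctrl and none higher (3 and 1 with library totals). Among genes with a mean of at least 100 counts, 39.1% were lower and 28.8% higher. Of the 3 fibroblast markers 1 was higher. The levels of KRT8, KRT19, CDH1, CDX2 and COL1A2 are not given here. COL1A1 was higher in CRLM1-OE than in Ctrl (log2 0.75) and KRT18 lower (426 against 785 FPKM). The part of these markers in the results was not tested.

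Progress through mitosis is driven by cyclin B bound to CDK1, together with the kinases PLK1, AURKA and AURKB. The spindle assembly checkpoint holds CDC20 until every kinetochore is attached. CDC20 then activates the anaphase-promoting complex (APC/C), a ubiquitin ligase that marks securin (PTTG1) and cyclin B for destruction, so that sister chromatids separate. Most of these genes are transcribed in G2 and M phase, when the MuvB complex with MYBL2 and the factor FOXM1 act on their promoters. A form of MuvB called DREAM represses them in resting cells. A sequence known as CHR, usually TTTGAA or TTTAAA, and CCAAT boxes nearby are typical of such promoters.

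RefSeq start-site sequences (GRCh38.p14) were available for 35 of the 41 genes and were not matched for TTK, BUB3, AURKA, TPX2, BIRC5 and UBE2C. In the 150 bases before the start, TTTGAA was found on either strand in 18 of 35 genes (51.4%, against 9.06% of 27303 genes with such a sequence), and TTTAAA, which reads the same on both strands, in 9 of 35 (25.7% against 7.67%). CCAAT was found on either strand in 28 of 35 (80% against 27.8%). Either TTTGAA or TTTAAA was found together with CCAAT in 21 of 35 (60% against 4.04%). These are letter matches in a fixed window and not measured binding sites. The windows of 120 bases printed next end 1 base before the RefSeq start and hold no annotated exon of their gene. They show the patterns found among members whose values are described later: CDC20, PTTG1 and KIF20A have a CHR-like match and CCAAT, as do KIF11 and MKI67. BUB1 and TOP2A have CCAAT alone, and CDK1 has none of the 3 motifs in this window. Capitals mark each match to a CHR form or to a CCAAT box, on either strand, and the letters run 5′ to 3′ on the gene's strand. In PTTG1 a forward and a reverse CCAAT overlap, and in MKI67 a TTTGAA overlaps a reverse CCAAT. For PTTG1 and CDK1 RefSeq lists 2 starts, and the first listed was used. The windows of KIF20A and KIF11 lie inside the span that GENCODE gives for the gene. In the order printed, the windows are chr1:43358861-43358980 (forward strand), chr5:160421735-160421854 (forward strand), chr5:138178992-138179111 (forward strand), chr2:110678064-110678183 (reverse strand), chr10:60778211-60778330 (forward strand), chr10:92593010-92593129 (forward strand), chr17:40417897-40418016 (reverse strand) and chr10:128126424-128126543 (reverse strand).
CDC20: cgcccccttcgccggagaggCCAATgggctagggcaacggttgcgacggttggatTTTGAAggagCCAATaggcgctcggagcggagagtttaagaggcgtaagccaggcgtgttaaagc
PTTG1: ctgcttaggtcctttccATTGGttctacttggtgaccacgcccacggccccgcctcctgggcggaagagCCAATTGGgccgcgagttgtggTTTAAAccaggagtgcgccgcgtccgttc
KIF20A: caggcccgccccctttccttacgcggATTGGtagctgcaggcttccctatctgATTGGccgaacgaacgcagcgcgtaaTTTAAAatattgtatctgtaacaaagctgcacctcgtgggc
BUB1: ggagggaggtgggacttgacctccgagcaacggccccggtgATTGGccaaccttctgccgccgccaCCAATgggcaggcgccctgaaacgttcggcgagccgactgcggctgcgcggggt
CDK1: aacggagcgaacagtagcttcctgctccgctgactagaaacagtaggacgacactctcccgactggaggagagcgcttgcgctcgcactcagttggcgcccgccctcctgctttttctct
KIF11: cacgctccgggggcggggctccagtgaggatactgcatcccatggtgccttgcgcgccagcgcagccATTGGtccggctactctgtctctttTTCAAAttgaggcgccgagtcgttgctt
TOP2A: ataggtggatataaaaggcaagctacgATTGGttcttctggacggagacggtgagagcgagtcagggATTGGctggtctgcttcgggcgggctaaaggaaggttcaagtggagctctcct
MKI67: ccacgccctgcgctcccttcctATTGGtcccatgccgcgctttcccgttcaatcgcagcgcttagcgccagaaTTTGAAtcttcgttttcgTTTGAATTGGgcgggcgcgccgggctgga

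All 41 genes were detected in every sample, with 17 to 9198 counts, and 39 of them had a mean of at least 100 counts. Levels between genes were compared in FPKM, which is scaled for exon length. In Ctrl, 12 genes were at 10 FPKM or more, 24 between 1 and 10, and 5 below 1. CDC20 (57.4 ± 1.29 FPKM, SD, n = 3) and UBE2C (54.4 ± 2.4), the activator and the ubiquitin-conjugating enzyme of the APC/C, led the order in Ctrl, and did not differ from each other beyond their combined spread. PTTG1 came next at 25.3 ± 1.02 FPKM, apart from both its neighbours. CCNB1 was at 13.7 ± 0.475, PLK1 at 12.9 ± 0.201 and AURKB at 12.7 ± 0.890, and AURKB did not differ from either of the others beyond their combined spread. CDK1 was at 9.02 ± 0.546 FPKM and MKI67 at 2.32 ± 0.216. At the low end stood KIF11 (0.643 ± 0.0577), CENPF (0.410 ± 0.0265) and CENPE (0.0933 ± 0.0208), which code for a spindle motor, a large kinetochore protein and a kinetochore motor.

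**Figure D1:**
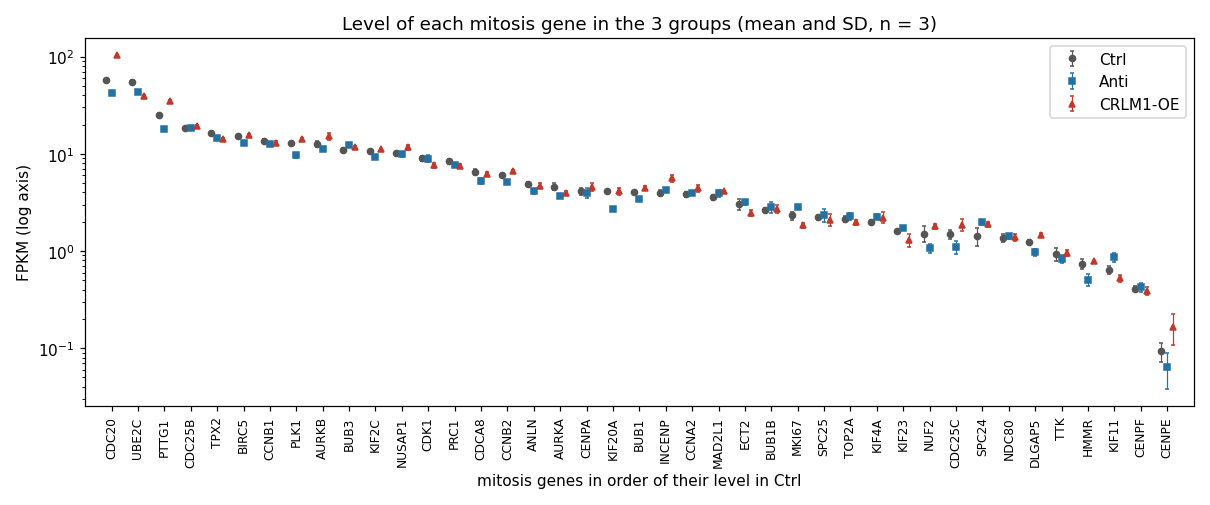
Level of each of the 41 mitosis genes in FPKM (log axis) in Ctrl, Anti and CRLM1-OE, ordered by the Ctrl mean; points are means and bars the SD of 3 samples. CDC20 has the highest point of the plot, in CRLM1-OE (103 FPKM), and CENPE the lowest, in Anti (0.0633 FPKM).

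Summed over the 41 genes, the FPKM was 395.67, 395.9 and 385.63 in the CRLM1-OE samples, 351.78, 344.68 and 345.15 in Ctrl, and 297.84, 297.29 and 298.89 in Anti. On this scale the 3 groups did not overlap. CDC20 alone made up 26.03% to 26.53% of this sum in CRLM1-OE, against 15.96% to 17.03% in Ctrl and 14.02% to 14.35% in Anti. Without CDC20 the sums of CRLM1-OE (290.69, 292.83 and 284.15) and Ctrl (295.65, 285.97 and 287.92) overlapped, while those of Anti (255.65, 255.61 and 255.99) stayed below both. In RNA from whole cultures, fewer cells in mitosis and less of these RNAs per cell cannot be told apart. FPKM is scaled to the library total, without edgeR's TMM factors (0.9448 to 0.9547 in Ctrl, 1 to 1.01 in Anti and 1.046 to 1.053 in CRLM1-OE). Divided by these factors, the sums of CRLM1-OE and Ctrl would overlap. Without CDC20, those of CRLM1-OE would lie below Ctrl. The sums are therefore a description that depends on scaling, and the comparisons that follow use counts normalised by TMM factors.

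To ask how CRLM1 overexpression and its antisense control bear on these genes, the 3 pairs of groups were compared by edgeR's quasi-likelihood test, with Benjamini-Hochberg adjustment over every gene tested. A gene is said to rise or fall only at an adjusted p of at most 0.05, and to pass 2-fold if its log2 fold change was also at least 1 in size. The labels do not say how the replicates were kept apart, so the p-values measure the spread between these samples, which may be partly technical. The 3 comparisons share samples and are not independent of each other. Each named gene was also tested under 14 alternatives per comparison (other scalings, filters, models or a sample left out), and those that end a call are given beside it.

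Mitosis genes changed in both directions between CRLM1-OE and Ctrl. Of 41 genes, 5 rose (CDC20, PTTG1, INCENP, CENPE and AURKB), 13 fell, led by UBE2C, MKI67, KIF11, ECT2 and KIF23, and 23 did not pass. In the background of all 29846 genes tested, 15% rose and 16.8% fell, and among the 11702 genes with a mean of at least 100 counts 28.8% rose and 39.1% fell. The median log2 fold change of the 41 genes was -0.0708, against 0.0168 over all genes tested and -0.0477 over the better counted ones. No member passed 2-fold, compared with 3.41% of all genes (2.5% higher and 0.915% lower), and 31.8% of all genes passed in either direction. The split depends on scaling, because library totals without factors shift the median of well counted genes from -0.0477 to 0.0935 and give 15 members higher and 8 lower. Relative to that median the members stood at -0.0232 with TMM factors and at -0.0233 with totals. A change of scaling shifts all genes alike, so this distance could not have moved.

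In Anti against Ctrl the mitosis genes were mostly lower. Of 41 genes, 22 fell, 4 rose (MKI67, KIF11, SPC24 and BUB3) and 15 did not pass, while in the background 12.2% of 29714 genes fell and 11.5% rose. Among genes with a mean of at least 100 counts, 28.8% fell and 25% rose. KIF20A, HMMR, PTTG1, NUF2, CDC20 and PLK1 were among those that fell, to between 61.7% (KIF20A) and 70.8% (PLK1) of Ctrl. The members' median was -0.212 and that of all genes tested 0.00466. No member passed 2-fold, as against 1.06% of all genes (0.683% higher and 0.38% lower), and 23.7% of all genes passed in either direction. With library totals 18 fell and 5 rose, and the members' median was -0.107. That median stood 0.204 below that of well counted genes with either scaling, because a change of scaling shifts all genes alike.

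CRLM1-OE against Anti, the pair with the largest contrast in the summed level, gave 18 of 41 genes higher, 9 lower and 14 that did not pass. The background was 17.1% higher and 18.5% lower of 30183 genes, and 33.8% and 40.4% of the well counted ones. CDC20 and CENPE passed 2-fold, as did 5.65% of all genes tested (3.09% higher and 2.56% lower), and 35.6% of all genes passed in either direction. The median of the members was 0.103, against -0.0226 over all genes tested and -0.0374 over the well counted ones.

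**Figure D2:**
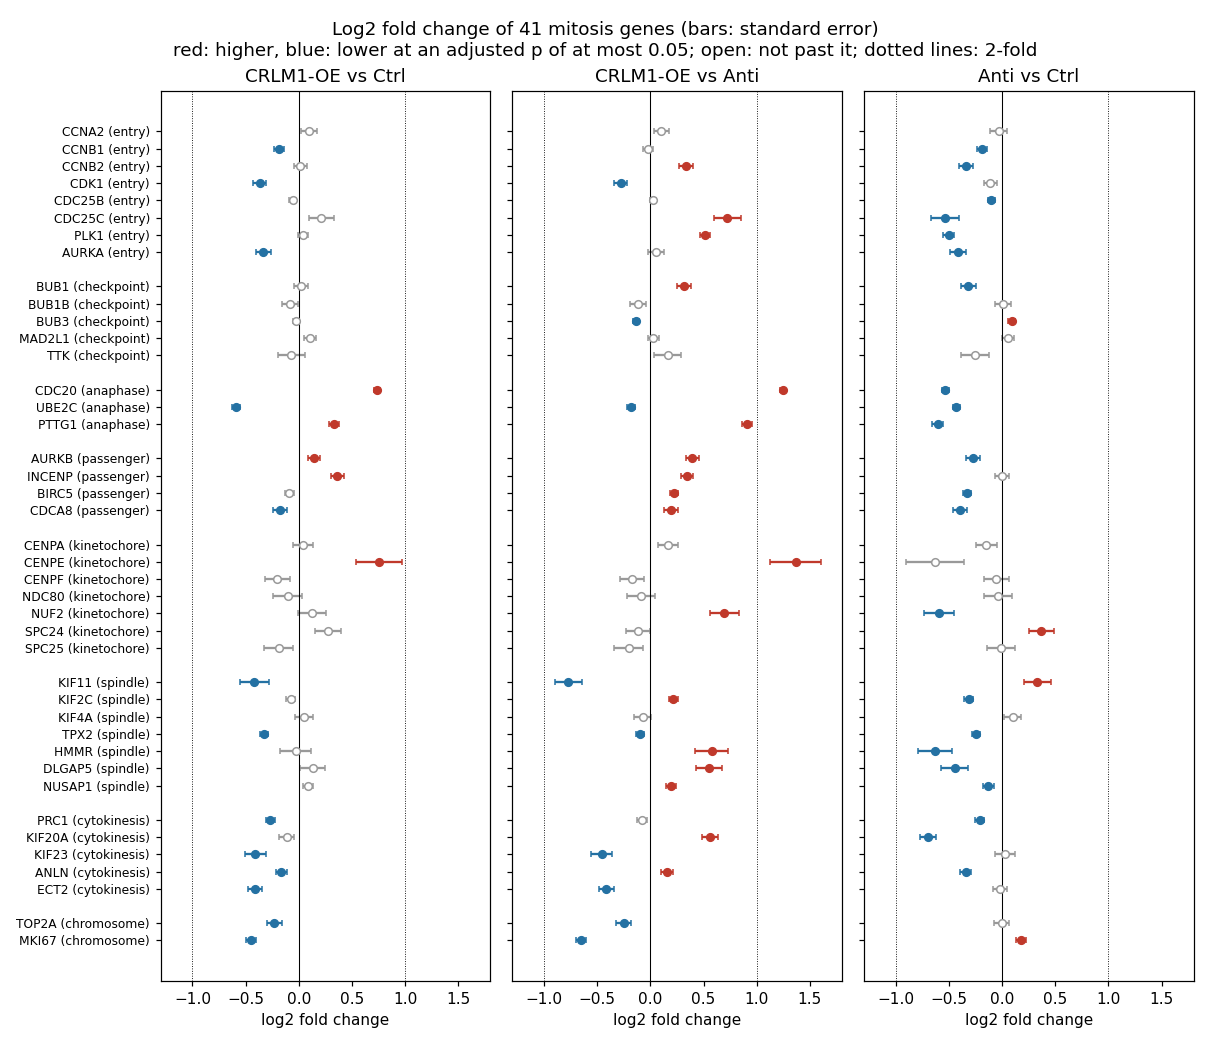
Log2 fold change of each of the 41 genes in the 3 comparisons, grouped by role; bars are standard errors, filled points passed an adjusted p of 0.05 (red higher, blue lower), open points did not, and dotted lines mark 2-fold. Most filled points lie left of 0 in Anti against Ctrl (22 of 26), and the point of CDC20 lies farthest right among the well counted genes of CRLM1-OE against Anti (1.24).

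Of the members with a mean of at least 100 counts, the anaphase gene CDC20 had the largest change in both comparisons of CRLM1-OE, and the CDC20 and UBE2C genes, whose products act on the same complex, moved apart in CRLM1-OE. CDC20, on chromosome 1 (43358981 to 43363203 of GRCh38), had 209.7, 204 and 205 normalised CPM in CRLM1-OE, 121, 127.8 and 124 in Ctrl and 86.8, 86.4 and 88.9 in Anti. Its 3 groups were clear of each other, with CRLM1-OE highest and Anti lowest. The log2 fold change was 0.73 (SE 0.0275, adjusted p = 2.62e-153) against Ctrl and 1.24 (SE 0.0263) against Anti, with an adjusted p at the smallest value written, 1e-300. Anti differed from Ctrl by -0.53 (SE 0.0306, adjusted p = 6.38e-65). The order of the groups was the same for PTTG1, the securin that keeps separase inactive until CDC20 acts. Its normalised CPM was 41.9, 45.2 and 43.2 in CRLM1-OE, 35.7, 34.8 and 33.1 in Ctrl and 23.8, 23 and 22.7 in Anti. PTTG1 rose by 0.33 (SE 0.0446, adjusted p = 1.68e-12) against Ctrl and by 0.91 (SE 0.0472, adjusted p = 1e-80) against Anti, and in Anti it changed by -0.60 (SE 0.0515, adjusted p = 7.74e-30) against Ctrl. UBE2C, which supplies ubiquitin to the APC/C, was highest in Ctrl at 85.2, 79.1 and 84 normalised CPM, followed by Anti at 62.2, 62.9 and 62.7 and CRLM1-OE at 56.6, 54.4 and 54.2. The groups again did not overlap, but here both inserts went with lower values than the free plasmid. Its log2 change was -0.59 (SE 0.0359, adjusted p = 9.44e-59) in CRLM1-OE and -0.43 (SE 0.0349, adjusted p = 6.83e-33) in Anti against Ctrl, and -0.18 (SE 0.036, adjusted p = 2.17e-06) between CRLM1-OE and Anti. Near-identical copies took few reads: CDC20P1 had 0 to 2 counts per sample, PTTG2 0 to 1, UBE2CP1 0 to 2 and UBE2CP2 0 to 1. Only reads that mapped to a single place were counted, so these values cannot show how many shared reads were lost.

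**Figure D3:**
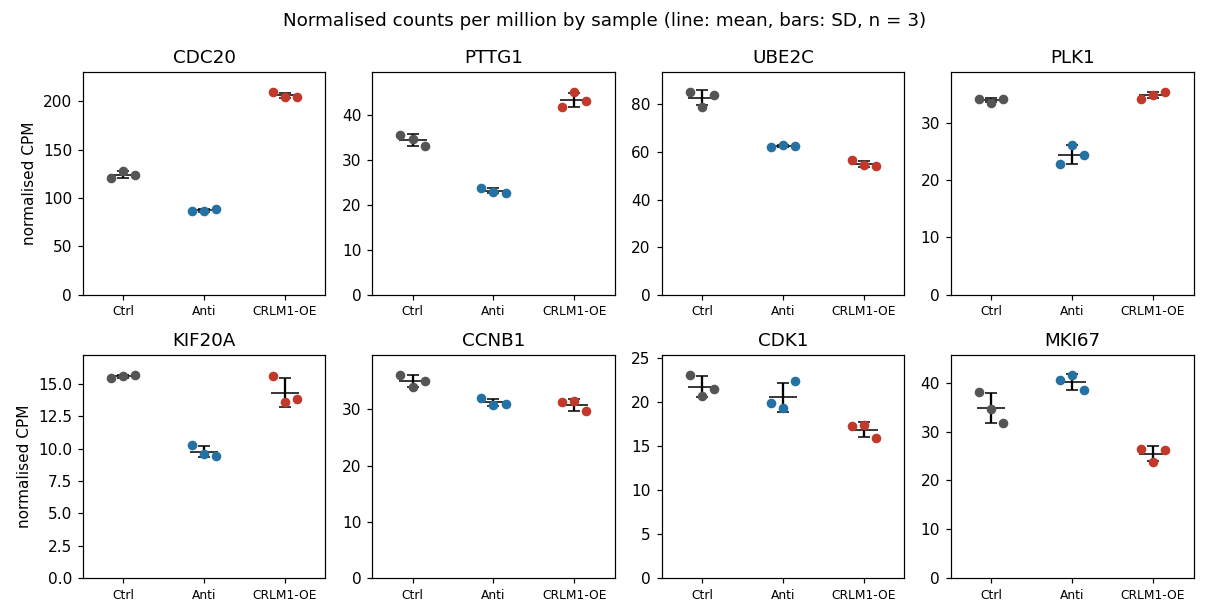
Normalised CPM (axes from 0) of 8 mitosis genes in each of the 9 samples; points are samples, lines means and bars the SD of 3 samples. CDC20 and PTTG1 are highest in CRLM1-OE and lowest in Anti, UBE2C is highest in Ctrl, and PLK1 and KIF20A are low in Anti alone, with means of 24.4 and 9.77 (PLK1 33.9 and KIF20A 15.6 in Ctrl).

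Among the 8 genes of mitotic entry, none rose against Ctrl in either group, 3 fell in CRLM1-OE and 6 fell in Anti. The shares that fell were 37.5% and 75%, where 39.1% and 28.8% of well counted genes did, so the first was near the background. With library totals 5 rose and 2 fell in CRLM1-OE, and 4 fell and none rose in Anti. In CRLM1-OE against Anti 3 rose and 1 fell (37.5% and 12.5%), where 33.8% of well counted genes rose and 40.4% fell. The share that rose was thus near the background. CCNB1, the main cyclin partner of CDK1, had 36.1, 34 and 35 normalised CPM in Ctrl, 31.3, 31.5 and 29.6 in CRLM1-OE and 32, 30.8 and 31 in Anti. It was lower than Ctrl in both groups, with a log2 change of -0.19 (SE 0.0478, adjusted p = 0.000388) in CRLM1-OE and -0.19 (SE 0.048, adjusted p = 0.000495) in Anti, and CRLM1-OE and Anti overlapped. CDK1 was at 23.1, 20.7 and 21.5 in Ctrl, 19.9, 19.3 and 22.5 in Anti and 17.3, 17.4 and 15.9 in CRLM1-OE. It fell in CRLM1-OE, with a log2 change of -0.37 (SE 0.0614, adjusted p = 1.58e-08) against Ctrl and -0.28 (SE 0.0614, adjusted p = 2.47e-05) against Anti. Anti and Ctrl samples overlapped, and their log2 difference was -0.11 (SE 0.0597, adjusted p = 0.2). AURKA, the kinase of centrosome maturation, was at 13.4, 15.8 and 15.3 in Ctrl, 11.5, 11.1 and 12.4 in CRLM1-OE and 11.6, 10.9 and 11.4 in Anti. It was lower than Ctrl in both groups, with a log2 change of -0.33 (SE 0.0725, adjusted p = 2.15e-05) in CRLM1-OE and -0.41 (SE 0.0751, adjusted p = 5.39e-07) in Anti. PLK1, which activates CDC25C and acts at centrosomes and kinetochores, had another pattern. Its normalised CPM was 34.2, 34.9 and 35.3 in CRLM1-OE, 34.1, 33.5 and 34 in Ctrl and 22.8, 26.1 and 24.3 in Anti, so that Anti stood apart. PLK1 changed by -0.50 (SE 0.0512, adjusted p = 6.45e-21) in Anti against Ctrl and 0.51 (SE 0.0492, adjusted p = 1.87e-24) in CRLM1-OE against Anti, and by 0.038 (SE 0.0469, adjusted p = 0.574) in CRLM1-OE against Ctrl. CCNB2 (-0.34) and the CDK1-activating phosphatase CDC25C (-0.53) also fell in Anti and had log2 changes of 0.013 and 0.21, which did not pass, in CRLM1-OE against Ctrl. The S and G2 cyclin CCNA2 passed in none of the comparisons (0.093, 0.10 and -0.033). CCNB1 lost both calls against Ctrl with library totals (log2 -0.0468 in CRLM1-OE and -0.0858 in Anti) and with limma on FPKM at either pseudocount, as did AURKA in CRLM1-OE with limma alone (-0.219 and -0.182). CDK1 passed in CRLM1-OE under every alternative run, and PLK1 passed in CRLM1-OE against Ctrl with library totals (0.179) and both limma fits (0.152 and 0.142).

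Of the 5 genes of the spindle assembly checkpoint, 1 rose and 1 fell (20% each) in each of the comparisons with Anti. Of well counted genes 33.8% rose and 40.4% fell in CRLM1-OE against Anti, and 25% and 28.8% in Anti against Ctrl. None of the 5 passed in CRLM1-OE against Ctrl, where 28.8% of well counted genes rose and 39.1% fell. Their log2 fold changes there lay between -0.0848 and 0.106 (with library totals 3 rose and none fell). BUB1, a kinase that recruits other checkpoint proteins to kinetochores, had 17.3, 17.7 and 17.3 normalised CPM in Ctrl, 17.6, 18.5 and 16.9 in CRLM1-OE and 14.4, 14.3 and 14.1 in Anti. Anti lay below both other groups, with a log2 change of -0.32 (SE 0.0684, adjusted p = 3.38e-05) against Ctrl, and CRLM1-OE was higher than Anti by 0.31 (SE 0.0658, adjusted p = 1.01e-05). BUB3, a partner of BUB1 and the best counted member of the group (104, 104 and 96.5 normalised CPM in Ctrl, 111, 111 and 107 in Anti and 102, 99.3 and 97.8 in CRLM1-OE), went the other way, 0.091 (SE 0.0305, adjusted p = 0.0142) in Anti against Ctrl and -0.14 (SE 0.0285, adjusted p = 4.5e-06) in CRLM1-OE against Anti. Its rise in Anti did not pass without Ctrl replicate 3 (0.0668), Anti replicate 1 (0.0779) or Anti replicate 2 (0.0807). BUB1B, MAD2L1 and TTK passed in none of the comparisons.

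The chromosomal passenger complex corrects faulty attachments and marks the site of cleavage, with AURKB as its kinase and INCENP, BIRC5 and CDCA8 as its other subunits. All 4 genes were higher in CRLM1-OE than in Anti, as were 33.8% of well counted genes. INCENP, the scaffold, was at 22.5, 25.9 and 24.1 normalised CPM in CRLM1-OE, 19.9, 17.8 and 18.3 in Ctrl and 18.6, 18.5 and 20.2 in Anti. It rose in CRLM1-OE by 0.36 (SE 0.0586, adjusted p = 4.49e-09) against Ctrl and 0.34 (SE 0.0574, adjusted p = 1.6e-08) against Anti, with Ctrl and Anti overlapping. AURKB was at 20.7, 23.4 and 21.1 in CRLM1-OE, 18, 20.5 and 20.7 in Ctrl and 17, 16.1 and 16.7 in Anti. It fell in Anti, with a log2 change of -0.27 (SE 0.0642, adjusted p = 0.000168), and its difference of 0.14 (SE 0.0595, adjusted p = 0.0499) between CRLM1-OE and Ctrl was at the limit of the test, with the lowest CRLM1-OE sample level with the highest Ctrl one. That difference did not pass without CRLM1-OE replicate 2 (0.0842), without Ctrl replicate 1 (0.086), in the fit of all 9 samples (0.127) or with DESeq2 (0.152), and the fall of AURKB in Anti did not pass with either limma fit (-0.183 and -0.17). BIRC5 (survivin) and CDCA8 (borealin) fell in Anti against Ctrl (log2 -0.33 and -0.39), and their values in CRLM1-OE against Ctrl were -0.088, which did not pass, and -0.18, which did.

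Of the 7 kinetochore genes, 1 rose (14.3%) and none fell in CRLM1-OE against Ctrl. Of all genes tested 15% rose and 16.8% fell, and of well counted genes 28.8% and 39.1%. In CRLM1-OE against Anti 2 rose (28.6%) and none fell, where 33.8% of well counted genes rose and 40.4% fell. In Anti against Ctrl 1 rose and 1 fell (14.3% each), where 25% of well counted genes rose and 28.8% fell. CENPE, a motor that moves chromosomes to the spindle equator, had 43, 66 and 76 reads in CRLM1-OE, 41, 39 and 23 in Ctrl and 17, 21 and 31 in Anti. It was the least counted member, with a mean of 39.67 counts. In normalised CPM the samples were at 0.980, 1.88 and 1.92 in CRLM1-OE, 0.969, 1.14 and 0.689 in Ctrl and 0.420, 0.559 and 0.882 in Anti. CRLM1-OE replicate 1 lay inside the Ctrl range, so these groups overlapped. The fitted differences were 0.75 (SE 0.217, adjusted p = 0.00222) against Ctrl and 1.36 (SE 0.236, adjusted p = 4.43e-08) against Anti. Without CRLM1-OE replicate 1 the first was 1.02, past 2-fold, and limma gave 0.445 and 0.693 on log2(FPKM + 0.1) and 0.0926 and 0.133 on log2(FPKM + 1), none of which passed. The difference between Anti and Ctrl was -0.63 (SE 0.274, adjusted p = 0.0828), and among the alternatives run it passed only without Ctrl replicate 3 (-0.788) or Anti replicate 3 (-0.951). NUF2 and SPC24 belong to the NDC80 complex, which binds microtubules. NUF2 was lower in Anti, at 2.4, 2.74 and 2.22 normalised CPM against 4.13, 2.89 and 3.84 in Ctrl and 3.97, 4.19 and 3.76 in CRLM1-OE. Its change was -0.59 (SE 0.143, adjusted p = 0.000247) in Anti against Ctrl and 0.70 (SE 0.138, adjusted p = 2.26e-06) in CRLM1-OE against Anti. The first did not pass with either limma fit (-0.449 and -0.273). SPC24 was at 4.79, 5.25 and 5.46 normalised CPM in Anti, 3.45, 3.47 and 4.92 in Ctrl and 5.04, 4.68 and 4.49 in CRLM1-OE, where Anti and Ctrl overlapped. It rose in Anti against Ctrl by 0.37 (SE 0.12, adjusted p = 0.0108), but did not pass without Ctrl replicate 1 (0.278), Ctrl replicate 2 (0.303) or Anti replicate 3 (0.337), with DESeq2 (0.367) or with either limma fit (0.445 and 0.292). In CRLM1-OE against Ctrl SPC24 was 0.28 (SE 0.122, adjusted p = 0.071), and it passed without Ctrl replicate 3 (0.473), with library totals (0.417) and with the replicate number as a block (0.279). NDC80 and SPC25, the other genes of that complex, passed in none of the comparisons, nor did CENPA and CENPF.

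Spindle genes mostly followed the lower level in Anti, with 5 of 7 lower and 1 higher against Ctrl. With library totals 4 fell and 1 rose in Anti, and with limma on log2(FPKM + 0.1) 2 fell and none rose. In CRLM1-OE 2 fell against Ctrl and none rose (1 and 1 with library totals). The shares that fell were 71.4% and 28.6%, where 28.8% and 39.1% of well counted genes did. HMMR, a spindle pole protein that works with TPX2, was at 1.9, 2.16 and 1.59 normalised CPM in Anti, 3.21, 2.74 and 2.61 in Ctrl and 2.74, 2.82 and 2.88 in CRLM1-OE. It fell in Anti, with a log2 change of -0.63 (SE 0.161, adjusted p = 0.000624) against Ctrl, and CRLM1-OE was 0.58 (SE 0.158, adjusted p = 0.00102) above Anti. The fall did not pass with either limma fit (-0.461 and -0.202). TPX2, which activates AURKA on the spindle, had 69.8, 69.8 and 69.7 in Ctrl, 58.9, 60.1 and 60.4 in Anti and 57.2, 53.3 and 56.3 in CRLM1-OE, and so fell in both groups (log2 -0.32 in CRLM1-OE and -0.25 in Anti). KIF11, the motor that pushes spindle poles apart, was highest in Anti. Its normalised CPM was 5.23, 4.26 and 4.72 in Anti, 4.04, 3.53 and 3.51 in Ctrl and 2.69, 2.57 and 3.05 in CRLM1-OE. It changed by -0.42 (SE 0.138, adjusted p = 0.00936) in CRLM1-OE against Ctrl, -0.77 (SE 0.13, adjusted p = 1.48e-08) against Anti and 0.33 (SE 0.125, adjusted p = 0.0351) in Anti against Ctrl. The first did not pass without Ctrl replicate 1 (-0.333), with library totals (-0.277), with DESeq2 (-0.407) or with either limma fit (-0.253 and -0.109). The last did not pass without Ctrl replicate 2 (0.306), Ctrl replicate 3 (0.304), Anti replicate 1 (0.244) or Anti replicate 3 (0.342), with DESeq2 (0.334) or with either limma fit (0.372 and 0.181). KIF2C, DLGAP5 and NUSAP1 were lower in Anti against Ctrl (-0.31, -0.45 and -0.13) and did not pass in CRLM1-OE against Ctrl (-0.077, 0.13 and 0.085). The fall of NUSAP1 was near the limit of the test (edgeR, adjusted p = 0.0464), and its Anti and Ctrl samples overlapped. KIF4A, a chromosome motor, passed in none of the comparisons, at 0.049 (SE 0.0814, adjusted p = 0.694), -0.073 (SE 0.0785, adjusted p = 0.536) and 0.10 (SE 0.0819, adjusted p = 0.473) in the order CRLM1-OE against Ctrl, CRLM1-OE against Anti and Anti against Ctrl.

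Of the 5 genes of cytokinesis, 4 fell in CRLM1-OE and 3 in Anti against Ctrl, where 39.1% and 28.8% of well counted genes did. With library totals 3 and 2 fell, and with limma on log2(FPKM + 0.1) none fell in CRLM1-OE and 2 in Anti. KIF20A, a motor that carries the passenger complex to the central spindle, had 10.3, 9.59 and 9.44 normalised CPM in Anti, 15.5, 15.6 and 15.7 in Ctrl and 15.6, 13.6 and 13.8 in CRLM1-OE. Every Anti sample was below those of both other groups, with a log2 change of -0.70 (SE 0.0765, adjusted p = 2.67e-18) against Ctrl, and CRLM1-OE exceeded it by 0.56 (SE 0.075, adjusted p = 7.31e-13). CRLM1-OE and Ctrl overlapped, with a difference of -0.11 (SE 0.0683, adjusted p = 0.226). The counts of KIF20A can include reads of BRD8 and CDC23, whose exons overlap it on the other strand. KIF23 and ECT2, which build the midzone signal for the cleavage furrow, were low in CRLM1-OE instead. KIF23 was at 5.49, 6.39 and 4.79 in CRLM1-OE, 7.58, 7.38 and 7.07 in Ctrl and 7.48, 7.59 and 7.79 in Anti. ECT2 was at 11.5, 13.3 and 12.1 in CRLM1-OE, 17.2, 17.7 and 14 in Ctrl and 15.1, 16.9 and 17.2 in Anti. For both genes CRLM1-OE lay below the other groups, while Ctrl and Anti overlapped. KIF23 had a log2 change of -0.41 (SE 0.101, adjusted p = 0.000252) against Ctrl and -0.46 (SE 0.0989, adjusted p = 1.73e-05) against Anti. The log2 change of ECT2 was -0.41 (SE 0.07, adjusted p = 2.85e-08) against Ctrl and -0.41 (SE 0.0691, adjusted p = 1.23e-08) against Anti. Against Ctrl neither gene passed with limma on FPKM, which gave -0.273 and -0.17 for KIF23 and -0.273 and -0.208 for ECT2 with the smaller and the larger pseudocount. PRC1 and ANLN were lower than Ctrl in both groups, with log2 changes of -0.27 in CRLM1-OE and -0.21 in Anti for PRC1 and of -0.17 and -0.34 for ANLN.

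TOP2A, which untangles sister DNA, and MKI67, a protein of the chromosome surface known as a marker of cycling cells, both fell in CRLM1-OE. MKI67 was at 26.5, 23.7 and 26.3 normalised CPM in CRLM1-OE, 38.1, 34.7 and 31.8 in Ctrl and 40.5, 41.6 and 38.5 in Anti. The 3 groups were clear of each other, with Anti highest and CRLM1-OE lowest, the opposite of the order of CDC20 and PTTG1. The log2 change of MKI67 was -0.45 (SE 0.0497, adjusted p = 1.62e-18) in CRLM1-OE against Ctrl, -0.65 (SE 0.047, adjusted p = 2.78e-42) against Anti, and 0.18 (SE 0.0454, adjusted p = 0.000627) in Anti against Ctrl. The last did not pass with either limma fit (0.264 and 0.196). TOP2A had 12.2, 11.8 and 13.2 in CRLM1-OE, 13.9, 15.9 and 13.9 in Ctrl and 13.4, 15.2 and 16 in Anti. Its log2 change was -0.23 (SE 0.0718, adjusted p = 0.00492) in CRLM1-OE against Ctrl and -0.25 (SE 0.0706, adjusted p = 0.0014) against Anti, although the first did not pass without Ctrl replicate 2 (-0.162), with library totals (-0.0903) or with either limma fit (-0.115 and -0.0812). The second did not pass with either limma fit (-0.195 and -0.139).

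Fold changes were set beside gene length as a description. Taking the exon length implied by counts and FPKM, Spearman's rho between length and log2 fold change across the 41 genes was -0.234 in CRLM1-OE against Ctrl, -0.335 in CRLM1-OE against Anti and 0.412 in Anti against Ctrl. Over 11702 well counted genes it was 0.0682, -0.0924 and 0.29. Genes are not independent replicates, and every one of these values comes from the same libraries. In Anti against Ctrl, the 18 members over 4000 nt had a median log2 change of -0.0122 and the 5 under 2000 nt one of -0.272, and the corresponding medians of all well counted genes were 0.0505 and -0.131.

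The CHR-like matches were set beside the outcome in Anti as a count, with no test. Among genes with a start sequence, a CHR-like match was found in 13 of 18 that fell in Anti against Ctrl and in 11 of the 17 others. A link between these matches and the changes in Anti was not tested.

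Other genes of the cell cycle were read from lists of the same kind. Of well counted genes, 28.8% rose and 39.1% fell in CRLM1-OE against Ctrl, and 33.8% and 40.4% in CRLM1-OE against Anti. In Anti against Ctrl the shares were 25% and 28.8%. List counts near these shares are no result about the list. Of 12 genes of the FOXM1, MYBL2 and MuvB/DREAM list, 1 rose and 8 fell in CRLM1-OE against Ctrl, 1 rose and 6 fell against Anti, and 5 rose and 2 fell in Anti against Ctrl. FOXM1 was -0.33 (SE 0.0654, adjusted p = 2.39e-06) in CRLM1-OE against Ctrl, -0.47 (SE 0.0632, adjusted p = 8.14e-13) against Anti and 0.12 (SE 0.062, adjusted p = 0.199) in Anti against Ctrl. MYBL2 gave -0.24 (SE 0.0452, adjusted p = 6.42e-07), -0.38 (SE 0.043, adjusted p = 4.37e-18) and 0.12 (SE 0.0429, adjusted p = 0.0232) in the same order, and its rise in Anti did not pass without Ctrl replicate 2 (0.115), Anti replicate 1 (0.119) or Anti replicate 3 (0.0968) or with DESeq2 (0.122). Its fall against Ctrl did not pass with library totals (-0.0994), while FOXM1 passed in Anti against Ctrl with library totals (0.22) and both limma fits (0.2 and 0.168). RBBP4, a histone-binding subunit of MuvB and of several chromatin complexes, had the largest change of the list, -0.96 (SE 0.0328, adjusted p = 1.45e-186) against Ctrl and -1.27 (SE 0.0293) against Anti, the latter with an adjusted p at the floor of 1e-300.

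The core APC/C and its regulators (17 genes) had 5 higher and 9 lower in CRLM1-OE against Ctrl, a split that library totals changed to 7 and 5. Against Anti the numbers were 5 and 9, and in Anti against Ctrl 2 rose and 5 fell (7 and 4 with library totals). UBE2S, which extends ubiquitin chains on the APC/C after UBE2C has started them, followed CDC20 rather than UBE2C in direction in the comparisons of CRLM1-OE. It rose in CRLM1-OE by 0.28 (SE 0.0225, adjusted p = 2.98e-35) against Ctrl and 0.76 (SE 0.0205, adjusted p = 9.14e-294) against Anti. In Anti it had a log2 change of -0.49 (SE 0.0234, adjusted p = 1.66e-95) against Ctrl, where CDC20 and UBE2C fell too. Of 21 condensin and cohesin genes, 14 fell and 2 rose in CRLM1-OE against Ctrl (9 and 4 with library totals), and 14 fell and 3 rose against Anti. Between Anti and Ctrl 3 rose and 4 fell, which library totals turned to 8 and 2. STAG1, a cohesin subunit, led with -0.97 (SE 0.0837, adjusted p = 6.24e-30) against Ctrl and -1.10 (SE 0.0806, adjusted p = 4.31e-41) against Anti. The other kinetochore genes (25) had 12 lower and 2 higher in CRLM1-OE against Ctrl (8 and 5 with library totals, 5 and 3 with limma on log2(FPKM + 0.1)), 13 lower and 3 higher against Anti, and 8 higher and 2 lower in Anti against Ctrl. MIS12, of the complex that links centromere and microtubule binders, gave -0.77 (SE 0.0904, adjusted p = 1.5e-16) and -1.08 (SE 0.0844, adjusted p = 1.98e-36) in CRLM1-OE. Among other spindle and midbody genes (16), 5 rose and 5 fell in CRLM1-OE against Ctrl (6 and 3 with library totals). That was 31.2% each way, near the 28.8% higher and 39.1% lower of well counted genes. Against Anti 4 rose and 2 fell, and in Anti against Ctrl 2 rose and 6 fell. The centrosome kinase NEK2 fell in both groups against Ctrl, with a log2 change of -0.40 (SE 0.0913, adjusted p = 6.81e-05) in CRLM1-OE and -0.59 (SE 0.0941, adjusted p = 6.59e-09) in Anti.

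CDK inhibitors and other brakes on G2 (14 genes) split in each comparison, with 6 higher and 3 lower in CRLM1-OE against Ctrl, 7 and 5 against Anti, and 4 and 5 in Anti against Ctrl. The shares higher were 42.9%, 50% and 28.6%, where those of well counted genes were 28.8%, 33.8% and 25%. The shares lower were 21.4%, 35.7% and 35.7%, where those of well counted genes were 39.1%, 40.4% and 28.8%. CDKN1A (p21), which lowers mitotic gene transcription through DREAM when p53 is active, was high in this line, 319 ± 1.7 FPKM in Ctrl, 379 ± 0.889 in Anti and 298 ± 4.65 in CRLM1-OE (SD, n = 3). It rose in Anti by 0.16 (SE 0.019, adjusted p = 3.51e-15) and fell in CRLM1-OE, with a log2 change of -0.21 (SE 0.0194, adjusted p = 8.71e-27), both against Ctrl. WEE1, the kinase that holds CDK1 inactive, rose in both groups, 0.29 (SE 0.0547, adjusted p = 6.03e-07) in CRLM1-OE and 0.23 (SE 0.0558, adjusted p = 0.000288) in Anti. CDKN1C (p57) rose in CRLM1-OE by 0.71 (SE 0.065, adjusted p = 3.65e-26) against Ctrl and 1.48 (SE 0.0719, adjusted p = 7.55e-92) against Anti. GADD45B, a stress gene that restrains CDK1, rose by 0.91 (SE 0.0251, adjusted p = 1.62e-285) and 1.30 (SE 0.0233), the latter with an adjusted p at the floor of 1e-300. Both genes fell in Anti against Ctrl, CDKN1C with a log2 change of -0.79 (edgeR, adjusted p = 1.03e-19) and GADD45B with -0.41 (adjusted p = 4.71e-48). Their differences between CRLM1-OE and Anti therefore include a lower level in Anti.

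The genes of the S-phase list, which act earlier in the cycle, moved mostly 1 way in each comparison. In CRLM1-OE, 12 of 14 genes fell against Ctrl and 14 of 14 against Anti, and none rose. Of well counted genes 39.1% and 40.4% fell in these comparisons. Between Anti and Ctrl, 10 rose and 1 fell, against 4 and 22 of the 41 mitosis genes, while 25% of well counted genes rose and 28.8% fell. The medians were -0.397, -0.718 and 0.3 for S phase and -0.0708, 0.103 and -0.212 for mitosis, in the order CRLM1-OE against Ctrl, CRLM1-OE against Anti and Anti against Ctrl. With library totals the S-phase counts were 10 lower and none higher, 14 lower and none higher, and 13 higher and none lower. MCM4 and MCM3, of the helicase that opens origins, changed by -0.88 (SE 0.0413, adjusted p = 1.24e-97) and -0.64 (SE 0.0474, adjusted p = 1.37e-39) in CRLM1-OE against Ctrl and by 0.47 (SE 0.0344, adjusted p = 2.49e-40) and 0.58 (SE 0.0398, adjusted p = 3.01e-45) in Anti against Ctrl. E2F1, a factor that drives genes of S-phase entry, changed by -0.90 (SE 0.0832, adjusted p = 4.82e-26) and 0.33 (SE 0.0695, adjusted p = 1.81e-05) in the same comparisons. CCNE2, a cyclin of S-phase entry, had the largest difference of the list, -1.84 (SE 0.162, adjusted p = 6.31e-29) in CRLM1-OE against Anti and 1.12 (SE 0.149, adjusted p = 7.59e-13) in Anti against Ctrl, while its change of -0.70 (SE 0.201, adjusted p = 0.00209) in CRLM1-OE against Ctrl did not pass without Ctrl replicate 2 (-0.525) or with either limma fit (-0.469 and -0.163).

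**Figure D4:**
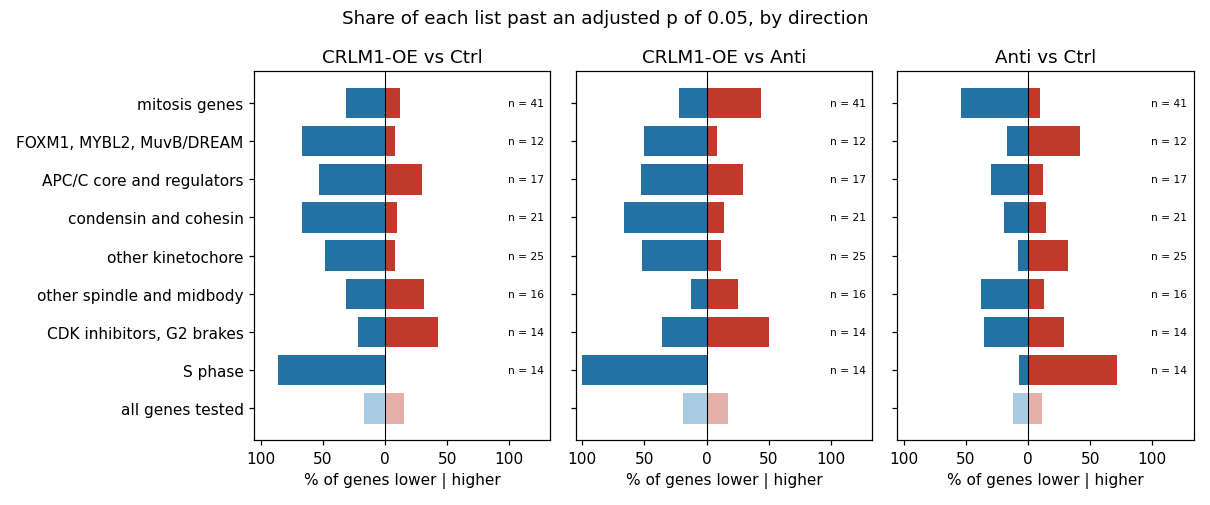
Share of each gene list that passed an adjusted p of 0.05 in each comparison, lower to the left (blue) and higher to the right (red), with all genes tested in pale colours. In Anti against Ctrl the mitosis genes extend to the left (53.7% lower) and the S-phase genes to the right (71.4% higher), while in CRLM1-OE against Ctrl 31.7% and 85.7% of them were lower, the first below the 39.1% of well counted genes and turned to more higher than lower by library totals.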

How the data were processed

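RNA from HCT116 cells of 3 groups, with 3 samples each, was examined, grouped by the condition and replicate number in the labels. The authors removed adaptors and poor bases with the FASTX-Toolkit, discarded reads under 16 nt, aligned the rest by TopHat2 (4 mismatches) to GRCh38 with Gencode version 23, and deposited a raw count for each gene from reads that mapped to a single place. The deposited FPKM values were scaled by the authors for exon length and mapped fragments, and are rounded. Both tables hold only genes that the authors regard as expressed, and the sources used here do not give the criterion, strand use or whether a read pair counted once. Genes that share exons are therefore uncertain.

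Counts were compared with the quasi-likelihood functions glmQLFit and glmQLFTest of edgeR 4.0.16 (R 4.3.3, TMM scaling) on the 6 samples of each comparison, without a covariate, over genes with at least 1 count in them. Adjusted p values below 1e-300 are written as 1e-300. Standard errors were taken from the log2 fold change and its F statistic. Normalised CPM used TMM factors over all 9 samples. Alternatives were RLE factors, library totals, filterByExpr, DESeq2 1.42.0, limma 3.58.1 on log2(FPKM + 0.1) and log2(FPKM + 1), all 9 samples in one fit, the replicate number as a block, and each sample left out. Each fit was also run on simulated data in which chosen genes had been changed, and the outcome is not given here. The simulated spread was assumed and the groups did not differ in scaling, so it does not bear on the choice of scaling.

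The members and the gene lists were chosen with earlier results of these data known, so lists are described by counts and medians and given no test. Every member may be named. Full statistics were given for the 5 members at each end in CRLM1-OE against Ctrl and in Anti against Ctrl, for 9 core genes, for members past 2-fold, and for FOXM1, MYBL2, CDKN1A, WEE1, CCNE2 and other list genes past 2-fold with a mean of at least 100 counts or, where a list had none, its most changed gene. CD3E was not analysed here. Positions are from GENCODE version 44 on GRCh38. Within groups, replicates differed beyond sampling noise (chi-square per degree of freedom 2.13 to 4.446 in the 9 pairs, over up to 12941 genes), so none was counted as a repeat. Plots were made in Python 3.11.15, using pandas 2.3.3 and matplotlib 3.10.9.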

Additional observations from a re-analysis of the deposited data

How the results depend on the processing

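In CRLM1-OE against Ctrl, library totals gave 15 members higher and 8 lower, a median of 0.0702 and 2951 of all genes lower. limma on log2(FPKM + 0.1) gave 4 members lower, a median of 0.0441 and 2667 genes lower, and on log2(FPKM + 1) 4, 0.0346 and 2655. Both keep the scaling of FPKM to the library total. Leaving out a sample gave 0 to 1 members past 2-fold (CENPE without CRLM1-OE replicate 1) and a median of -0.0737 to -0.0496. In CRLM1-OE against Anti, the median was 0.162 with library totals, 0.114 with DESeq2 and 0.147 with limma on log2(FPKM + 0.1), and 0.0624 to 0.149 with a sample left out. limma left 1 member past 2-fold with either pseudocount. In Anti against Ctrl, library totals gave a median of -0.107, with 5500 of all genes higher and 2029 lower, and DESeq2 gave 2 members higher. limma on log2(FPKM + 0.1) gave 1 member higher, 13 lower, a median of -0.115 and 1744 of all genes lower, and on log2(FPKM + 1) 1, 13, -0.075 and 1746. Leaving out a sample gave 2 to 3 members higher and 20 to 23 lower.

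Signs turned mostly in genes near 0 that passed in neither fit. In CRLM1-OE against Ctrl, library totals gave BUB3 0.115 (edgeR, adjusted p = 0.00101, the exception that passed), HMMR 0.11 and KIF20A 0.0264. limma gave BUB3 0.0889 and 0.0823 and HMMR 0.0833 and 0.0394 with the smaller and the larger pseudocount. With a sample left out, BUB3 ranged from -0.0413 to 0.000695, HMMR from -0.0731 to 0.0803, BUB1 from -0.0174 to 0.0515, NUF2 from -0.00397 to 0.249 and KIF4A from -0.0665 to 0.104. In CRLM1-OE against Anti, CCNB1 was 0.0389 with totals, 0.0265 and 0.0248 with limma and -0.0379 to 0.0201 with a sample left out. In Anti against Ctrl, INCENP was 0.104 with totals, 0.0943 and 0.0776 with limma, 0.000183 with RLE factors, 0.00251 with filterByExpr, 0.0021 with DESeq2, 0.00578 with all 9 samples and -0.0334 to 0.055 with a sample left out. ECT2 was 0.0837, 0.079 and 0.0606 with totals and limma, and -0.107 to 0.0466 with a sample left out. TOP2A was 0.101, 0.0802 and 0.0579, 0.00283 with all 9 samples, and -0.0511 to 0.0679 with a sample left out. The cause was not tested.

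The labels give shared replicate numbers and no shared batch. Deviations of same-numbered samples correlated at -0.0333 to 0.0783 over 9 pairs. Between CRLM1-OE and Ctrl they were 0.0298, 0.0215 and 0.0783, and differently numbered pairs ranged from -0.0457 to 0.0166. Such values cannot show whether samples were handled in pairs. With the replicate number as a block, 6 members rose and 13 fell in CRLM1-OE against Ctrl, 18 and 9 in CRLM1-OE against Anti and 4 and 22 in Anti against Ctrl, and INCENP in Anti against Ctrl was 0.000603. The number of samples, 3 per group, and low counts limit what can be said of CENPE, HMMR, NUF2, SPC24 and KIF11.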
